A study of Mus musculus with 12 samples.

Results

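The Ifi200 or PYHIN genes form a cluster on the distal part of mouse chromosome 1, and 10 of them were examined here among the 28689 genes of the table: Ifi202b, Ifi203, Ifi204, Ifi205, Ifi206, Ifi207, Ifi209, Ifi211, Mndal and Aim2. The genes were chosen by family membership, but the family itself was selected on the rise of Ifi202b between the groups compared here, so the values of that contrast, and the counts of members that the gene-wide fit called, are given as a description and are no test of the family. All 10 were found in the table, and 8 were high enough to enter the gene-wide fit, which took genes with at least 1 FPKM (fragments relative to gene length and to the fragments mapped in that library) in at least 6 of the 12 libraries. Ifi206 and Ifi209 were below that level. A gene could enter through 1 group alone, as Ifi202b, under 1 FPKM in every CTR library, did through dKO.

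The proteins of this family typically join a pyrin domain, which binds other pyrin domains, to a HIN domain, which binds DNA. Most of the genes are induced by type I interferon, the antiviral cytokine that cells release after sensing foreign nucleic acid, and several of the proteins sense DNA themselves. Aim2 binds DNA in the cytosol and recruits the adaptor ASC and caspase-1 to form an inflammasome, whereas the Ifi202b protein has HIN domains without a pyrin domain and opposes Aim2. Ifi202b is also known for levels that differ widely among inbred mouse strains, which is why its neighbours are set beside it.

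The libraries were made from cultured mouse lung endothelial cells (MLECs), with 6 libraries in each group. The dKO cells came from VE-CAD-CreERT2+/Sp1 fl/fl/Sp3 fl/fl mice, in which a tamoxifen-activated Cre driven by the VE-cadherin promoter deletes the transcription factors Sp1 and Sp3 in endothelium. The CTR cells came from Cre-negative littermates with the same floxed alleles, which the sample labels call WT, and both groups received tamoxifen by injection. The mice were males of 6 to 8 weeks, their strain background was not stated in the sources used here, and the Cre transgene was carried by the dKO group alone. Cells were taken from digested lung with CD31 beads, selected again with ICAM-2 beads at confluence and used at early passage. The labels do not say whether each library came from a separate animal or culture, so the spread between libraries may be partly technical.

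The 12 libraries held 15523054 to 17938286 fragments each. Sp1 fell from 21.2 ± 1.77 FPKM (mean ± SD, n = 6 here and below) in CTR to 10.6 ± 1.53 FPKM in dKO with no overlap, whereas Sp3 was at 27.7 ± 2.31 and 25.0 ± 1.64 FPKM and did not pass the test (limma, adjusted p = 0.0902); a total over the whole gene does not measure how much of the floxed part was removed. All 12 endothelial markers were expressed, with a summed level of 221 to 344 FPKM in CTR and 403 to 550 FPKM in dKO, and 11 of them were higher in dKO. All 6 retina markers stayed under 1 FPKM in every library, which goes against the retinas named in the extraction text of the labels. Of the 14 macrophage markers 13 were tested, 12 were higher and 1, Marco, was lower, and their summed level ran from 835 to 1395 FPKM in CTR and from 2424 to 5414 FPKM in dKO. Among the 12, Fcgr1, at most 0.835 FPKM in CTR, passed the filter only through dKO. The mesothelial markers were higher for 5 of 6 tested genes (summed 28.8 to 38.6 against 66.3 to 146 FPKM), and the fibroblast markers were lower for 3 of 5 and higher for 1, Dcn (summed 2122 to 2689 against 820 to 1645 FPKM). Of 10 other leukocyte markers 8 were in the table and 2 were high enough to be tested, Ptprc and S100a8, which were both higher (summed 1.68 to 4.97 against 7.29 to 12.3 FPKM), while the T and B cell genes Cd3e, Cd8a and Ms4a1 were at or near 0. Cd4 was too low to be tested but did not overlap, at 0.0730 ± 0.0416 FPKM in CTR and 1.32 ± 0.369 FPKM in dKO. The epithelial markers were higher for 1 of 6, Epcam (summed 85.2 to 488 against 146 to 350 FPKM). In bulk RNA of this kind, more cells of a type and more RNA per cell cannot be told apart.

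Promoter windows were available from RefSeq (build GRCm38.p6) for 9 of the 10 members, with 11 windows in all because Ifi203 and Mndal have 2 start sites each; Ifi204 was the member without one. Each window runs from 250 bases before the start site to 50 bases after it. The 250 bases before the start are shown for Ifi202b and for 5 members with which it is compared below, in the direction of transcription. Capitals mark 3 motifs: the GC box GGGCGG, a sequence that Sp1 and Sp3 bind, the interferon-stimulated response element core GAAANNGAA, and the gamma-activated sequence TTCNNNGAA, an element of interferon-gamma responses.
Ifi202b (chr1:173982845-173983094, minus strand): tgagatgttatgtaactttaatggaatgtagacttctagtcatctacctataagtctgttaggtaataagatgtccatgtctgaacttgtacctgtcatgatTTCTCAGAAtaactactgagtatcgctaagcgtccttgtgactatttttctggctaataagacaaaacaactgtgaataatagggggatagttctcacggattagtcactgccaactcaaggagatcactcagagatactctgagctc
Ifi203 second window (chr1:173942493-173942742, minus strand): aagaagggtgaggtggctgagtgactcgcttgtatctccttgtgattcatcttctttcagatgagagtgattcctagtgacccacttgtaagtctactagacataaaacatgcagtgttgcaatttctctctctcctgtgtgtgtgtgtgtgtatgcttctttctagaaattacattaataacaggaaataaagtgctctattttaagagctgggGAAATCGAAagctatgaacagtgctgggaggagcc
Ifi207 (chr1:173741810-173742059, minus strand): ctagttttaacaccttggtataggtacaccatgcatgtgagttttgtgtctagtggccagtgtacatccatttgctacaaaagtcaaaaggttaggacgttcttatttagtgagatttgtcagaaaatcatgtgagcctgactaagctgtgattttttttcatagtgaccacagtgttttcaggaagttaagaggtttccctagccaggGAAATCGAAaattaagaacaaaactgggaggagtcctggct
Ifi211 (chr1:173913047-173913296, minus strand): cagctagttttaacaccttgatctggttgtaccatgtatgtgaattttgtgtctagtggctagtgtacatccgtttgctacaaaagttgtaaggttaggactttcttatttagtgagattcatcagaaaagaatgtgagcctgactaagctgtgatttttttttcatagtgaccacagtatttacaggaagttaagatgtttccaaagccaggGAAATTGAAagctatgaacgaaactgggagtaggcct
Ifi205 (chr1:174031756-174032005, minus strand): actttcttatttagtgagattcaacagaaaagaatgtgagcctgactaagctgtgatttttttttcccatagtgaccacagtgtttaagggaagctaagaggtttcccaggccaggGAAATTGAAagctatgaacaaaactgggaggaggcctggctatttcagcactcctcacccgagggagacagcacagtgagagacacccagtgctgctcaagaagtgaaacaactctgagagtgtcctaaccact
Aim2 (chr1:173420354-173420603, plus strand): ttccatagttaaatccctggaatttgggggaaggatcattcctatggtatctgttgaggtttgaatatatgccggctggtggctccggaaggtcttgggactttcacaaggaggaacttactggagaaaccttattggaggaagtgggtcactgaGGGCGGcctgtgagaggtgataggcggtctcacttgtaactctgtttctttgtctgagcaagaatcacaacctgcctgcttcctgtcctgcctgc

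Motifs were searched on both strands, and positions count from the start site, whose own base is 0. The element core GAAANNGAA lay in a window of 6 of the 9 members, against 8.56% of all 32851 promoter windows. In Ifi203 (second window), Mndal, Ifi211, Ifi206 and Ifi207 it stood within a narrow stretch, at -35, -36, -37, -40 and -41, each time on the coding strand. In Ifi205 a copy on the coding strand began at -134 and a match on the other strand at 24; the second Mndal window held a match on the other strand at -53. The Ifi202b window held neither this core nor a GC box; its motif was a gamma-activated sequence at -148, which is found in 8.30% of all windows and in no other member window. Among the member windows a GC box was found in that of Aim2 alone, at -95, against 35.7% of all windows. The member windows held 37% (Ifi202b) to 49.3% (Aim2) G and C, and the median over all windows was 52.7%. These are sequences of the reference genome, and the strain of the mice was not stated, so the cells studied may differ from them.

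Aligned with each other, the windows of Ifi205 and Ifi211 were 94.0% identical over 201 aligned bases, and those of Ifi207 and Ifi211 were 88.2% identical over 296. The Ifi202b window shared 55.8% to 63.8% of its aligned bases with those of the other members.

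Ifi202b was close to absent in CTR and abundant in dKO. Its level ran from 0.0675 to 0.271 FPKM in CTR (median 0.123), and from 14.1 to 68.4 FPKM in dKO (median 32.1). In fragments, the CTR libraries held 8, 4, 3, 2, 2 and 5 (24 in all), and the dKO libraries 1271, 423, 2039, 846, 1080 and 476 (6135 in all). Every dKO library thus lay far above every CTR library, while the dKO libraries themselves spanned a 4.84-fold range, with replicates 3 and 1 highest and replicates 2 and 6 lowest. The mean rose 256-fold, from 0.138 ± 0.0768 to 35.3 ± 20.5 FPKM; the ratio of fragments per library total was 255, with an exact 95% interval of 171 to 398 that covers counting error only. On the log2(FPKM + 1) scale, which understates the change of a gene this low in CTR, the difference was 4.80 (SE 0.31), the place 2 among the rises of all 12467 genes tested. Without dKO replicate 3 the dKO mean was 28.7 ± 14.1 FPKM (n = 5), a 208-fold ratio.

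**Figure D1:**
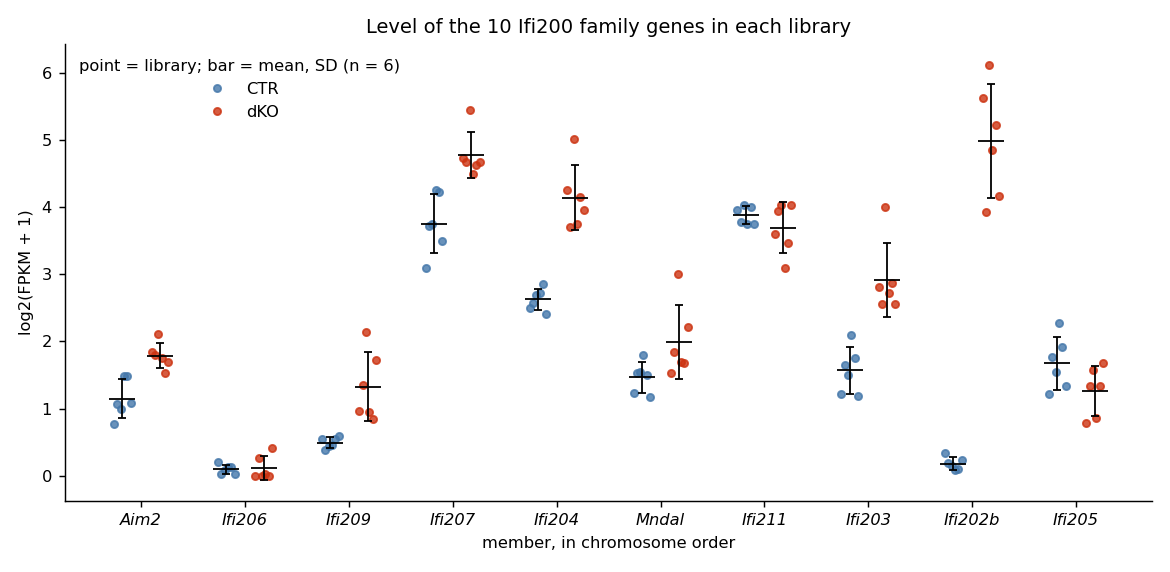
Level of the 10 family genes as log2(FPKM + 1) in each of the 6 CTR (blue) and 6 dKO (red) libraries, in chromosome order; black bars give mean and SD. The Ifi202b points lie near 0 in CTR and at the top of the plot in dKO, whereas those of Ifi211, Ifi205 and Ifi206 overlap between the groups.

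Among the DNA sensors of the family, Ifi204, whose protein senses DNA upstream of the adaptor STING, was next. It ran from 4.31 to 6.22 FPKM in CTR (median 5.21) and from 12 to 31.4 FPKM in dKO (median 15.6). The groups did not overlap, and the mean rose 3.37-fold, a log2 difference of 1.51 (SE 0.19). That value lies just past the fold threshold of 1.5 and fell short of it when any of 4 libraries was left out, being 1.34 without dKO replicate 3, 1.47 without CTR replicate 6, 1.49 without CTR replicate 1 and 1.49 without dKO replicate 1.

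Aim2, the inflammasome sensor, ran from 0.705 to 1.82 FPKM in CTR (median 1.11) and from 1.89 to 3.33 FPKM in dKO (median 2.43). Its groups were adjacent without overlapping, and the ratio of means was 1.98 with a log2 difference of 0.64 (SE 0.13). Aim2 is the member farthest from Ifi202b, at the other end of the cluster.

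Ifi203 and Ifi207, both with pyrin and HIN domains, also separated. Ifi203 ran from 1.29 to 3.27 FPKM in CTR (median 1.99) and from 4.87 to 15.1 FPKM in dKO (median 5.79), a 3.50-fold ratio and a log2 difference of 1.35 (SE 0.24). Ifi207 ran from 7.53 to 18 FPKM in CTR (median 12.3) and from 21.5 to 42.5 FPKM in dKO (median 24.5), a 2.08-fold ratio and a log2 difference of 1.02 (SE 0.20). In both genes dKO replicate 3 stood well above the other 5 dKO libraries, and without it the ratios were 2.72 and 1.84.

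Mndal, a nuclear member named for its likeness to human MNDA, overlapped between the groups. It ran from 1.26 to 2.49 FPKM in CTR (median 1.86) and from 1.88 to 7.04 FPKM in dKO (median 2.40), with a log2 difference of 0.53 (SE 0.22). Its ratio of means was 1.83 with all libraries and 1.40 without dKO replicate 3, and 3 of the 6 dKO libraries lay above the highest CTR library.

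Ifi209 was low but separated, from 0.300 to 0.513 FPKM in CTR (median 0.416) and from 0.789 to 3.42 FPKM in dKO (median 1.26), or 150 against 607 fragments, with a ratio of means of 4.02. Ifi206 was near 0 in both groups, with 23 fragments in CTR and 29 in dKO, and 3 of the dKO libraries held none.

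The 2 remaining members did not follow. Ifi211 ran from 12.4 to 15.4 FPKM in CTR (median 13.6) and from 7.53 to 15.4 FPKM in dKO (median 12.7), with a log2 difference of -0.19 (SE 0.15). Ifi205 ran from 1.33 to 3.84 FPKM in CTR (median 2.17) and from 0.725 to 2.20 FPKM in dKO (median 1.53), with a log2 difference of -0.41 (SE 0.20). Both overlapped between the groups, and 2 dKO libraries of Ifi205 and 3 of Ifi211 lay below the lowest CTR library.

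Of the 8 members tested, 5 were higher in dKO at an adjusted p under 0.05 and 0 lower (limma; Ifi202b, Ifi203, Ifi204, Ifi207 and Aim2), where 20.4% of all genes tested were higher and 32.6% lower. The same 5 had every dKO library above every CTR library, as had 11.3% of all genes tested. Past both thresholds, an adjusted p under 0.05 and a log2 difference over 1.5, were Ifi202b and Ifi204, and 1.43% of all genes tested rose past both. Because the contrast was used to choose the family, nothing is read from these counts. The median log2 difference of the 8 members was 0.83, beside -0.10 over all genes tested. With median-of-ratios scaling the median over all genes was -0.02, and the share of called genes that were higher moved from 38.5% to 50.9% (25.5% of genes tested higher and 24.6% lower); under that scaling, quantile normalization, either smaller pseudocount (0.1 or 0.01), the replicate block, or without CTR replicate 4, dKO replicate 1 or dKO replicate 5, Mndal was also called higher, and no setting called a member lower.

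Ifi202b stood apart from its neighbours on the chromosome. In order along chromosome 1 (GRCm39) the members are Aim2, Ifi206, Ifi209, Ifi207, Ifi204, Mndal, Ifi211, Ifi203, Ifi202b (chr1:173790134-173810414, minus strand) and Ifi205, which together span 681 kb from 173178445 to 173859456; Aim2 and Ifi209 are on the plus strand and the others on the minus strand. The neighbours of Ifi202b are Ifi203, whose annotated start coordinate lies at -42.2 kb from that of Ifi202b and whose log2 difference was 1.35, and Ifi205, at 49.4 kb with -0.41. Ifi211, on the far side of Ifi203, was at -0.19. The members that rose did not form a single stretch, since Ifi211 and Mndal lie between Ifi204 and Ifi203. The difference between the Ifi202b change and that of another tested member ran from 3.29 (Ifi204) to 5.21 (Ifi205) on the log2 scale.

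**Figure D2:**
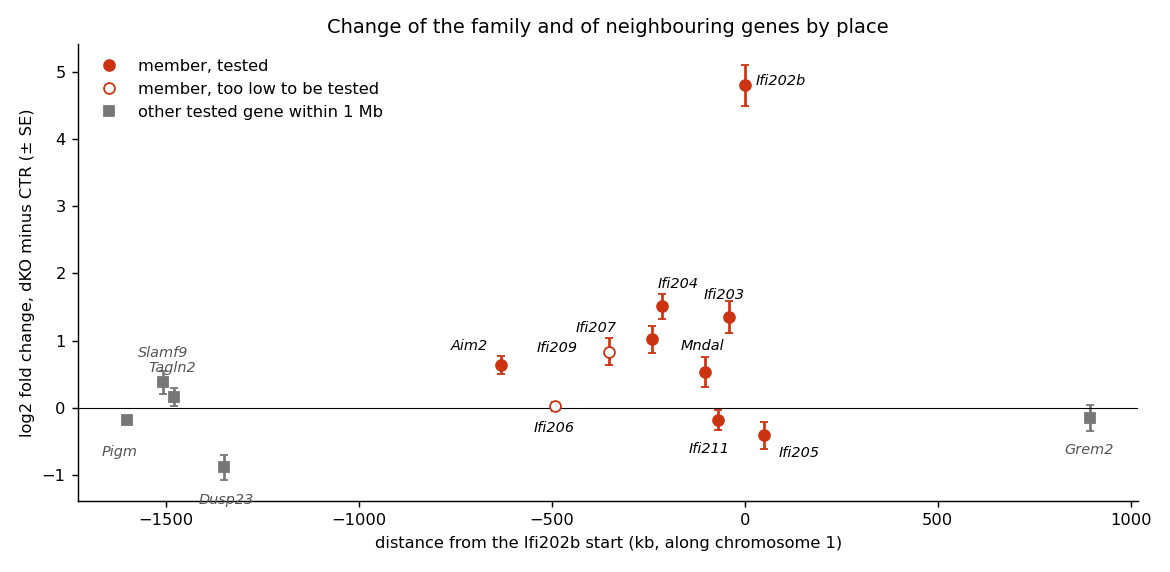
Log2 fold change (dKO minus CTR, with SE) of the 10 members (red, open where too low to be tested). The 5 other tested genes within 1 Mb of the cluster are in grey. The horizontal axis gives the distance in kb from the transcription start of Ifi202b. Members stand at their transcription starts and the other genes at their midpoints. Ifi202b at 4.80 lies above all of them, with Ifi203 (1.35) and Ifi205 (-0.41) on its sides.

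Other genes of the cluster were barely expressed. Of the 8 looked for, 4 were in the table, namely Ifi208, Ifi213, Ifi214 and the pseudogene Ifi203-ps; Mnda, Pydc3, Pydc4 and Pyhin1 were not found under these names. Ifi208 had 51 fragments in CTR and 49 in dKO, Ifi213 13 and 23, and Ifi203-ps 34 and 71. Ifi214 had 0 fragments in CTR and 33 in dKO, and it is 96.9% identical to Ifi209 over 1946 bases. Outside the cluster, 28 genes of the table lay within 1 Mb, of which 5 were tested and 0 passed both thresholds; at an adjusted p under 0.05 there were 2. The 3 with the largest change were Dusp23, a phosphatase, at -0.89 (SE 0.19; limma, adjusted p = 0.00155), Slamf9, an immune cell surface receptor, at 0.38 (SE 0.17; adjusted p = 0.0788), and Pigm, an enzyme of membrane anchor synthesis, at -0.18 (SE 0.06; adjusted p = 0.0157).

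Sequence likeness limits how far single members can be told apart. Counting transcript stretches of 150 or more bases at 95% or higher identity, Mndal matched 6 other annotated genes, Ifi203 matched 4, Ifi206 and Ifi211 matched 3 each, Ifi204 and Ifi205 matched 2 each, and Ifi209 matched 1. The values of all 7 are therefore uncertain where reads were shared with these genes, for instance over the 1799 bases of Ifi203 that are 96.8% identical to another of them, the 1487 bases at which Ifi204 and Ifi211 are 96.7% identical and the 1110 bases at which Ifi205 and Ifi211 are 97.4% identical. Ifi207 and Aim2 had no such match. Ifi202b matched only Gm18445, over 163 bases at 95.7%, which had 4 fragments in CTR and 5 in dKO. Among the members, the longest aligned stretch of Ifi202b was with Mndal, 325 bases at 81.8%. Strand was not stated for the counting, and Ifi202b overlaps the antisense gene Gm70977 and Aim2 overlaps Cadm3, Gm70266 and Gm70269 on the other strand.

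The order of the family changed with Ifi202b. In CTR the highest members were Ifi211 (13.7 ± 1.40 FPKM) and Ifi207 (13.0 ± 4.12), which overlapped each other, followed by Ifi204 (5.20 ± 0.693), clear of both its neighbours. A middle set of overlapping genes held Ifi205 (2.30 ± 0.927), Ifi203 (2.04 ± 0.744), Mndal (1.79 ± 0.447) and Aim2 (1.26 ± 0.452). Below these came Ifi209 (0.412 ± 0.0813), Ifi202b (0.138 ± 0.0768) and Ifi206 (0.0729 ± 0.0507), and the ranges of Ifi202b and Ifi206 overlapped. In dKO Ifi202b was first at 35.3 ± 20.5 FPKM, but its range overlapped those of Ifi207 (27.0 ± 7.70), next in order, which in turn overlapped that of Ifi204 (17.5 ± 7.20). Ifi211 (12.3 ± 3.23) and Ifi203 (7.12 ± 3.94) came after these, each overlapping the member before it and the member after it in the order. Mndal (3.26 ± 1.95), Aim2 (2.49 ± 0.481), Ifi209 (1.66 ± 1.03) and Ifi205 (1.46 ± 0.600) overlapped from each to the next, and Ifi206 (0.0929 ± 0.143) was alone at the bottom.

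Summed over the 10 genes, the family rose from 39.96 ± 6.98 to 108 ± 41.6 FPKM. Ifi202b made up 0.380% of that sum in CTR (0.141% to 0.836%) and 31.1% in dKO (18.1% to 41.9%). Ifi211 made up 35.2% in CTR and 12.2% in dKO, and Ifi205 5.60% and 1.45%, while Ifi204 held 13.1% and 16.1%. The 9 genes other than Ifi202b summed to 39.8 ± 7.05 FPKM in CTR (32.1 to 48.2) and to 72.9 ± 23.8 FPKM in dKO (53.4 to 120), so the groups remained separate without Ifi202b.

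**Figure D3:**
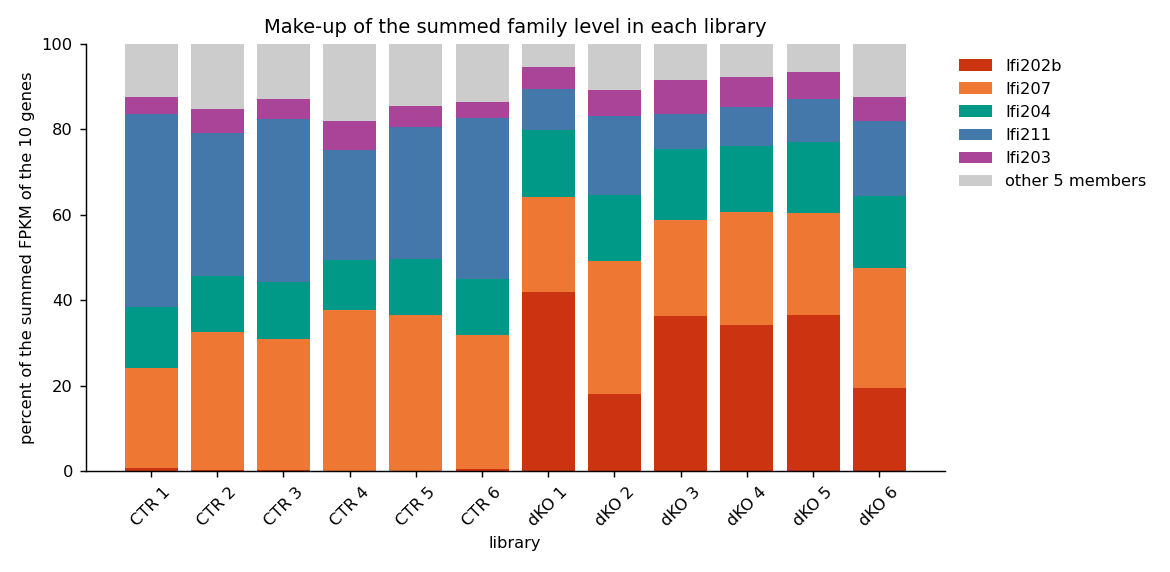
Percent of the summed FPKM of the 10 genes held by Ifi202b, Ifi207, Ifi204, Ifi211, Ifi203 and the other 5 members in each library. Ifi202b is a thin line at the bottom of the CTR bars and between 18.1% and 41.9% of the dKO bars, where the Ifi211 share is smaller.

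The dKO libraries did not rise evenly. Replicate 3 was the highest dKO library for 8 of the 10 members, with Ifi205 and Ifi206 as the exceptions, both of which were highest in replicate 6. Among the CTR libraries replicate 4 was highest for 5 members, namely Ifi203, Ifi205, Ifi207, Mndal and Aim2. dKO replicate 3 also had the highest mean level of the 18 interferon genes (4.63 on the log2 scale, against 3.05 to 4.16 in the other dKO libraries) and of the 14 macrophage genes (6.37, against 5.36 to 5.67).

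The pathway around the family was described from lists of genes that contain no member. Of 18 interferon-stimulated genes 16 were tested, with a median log2 difference of 1.97. Of these, 16 were higher in dKO (against 20.4% of all genes tested) and 11 passed both thresholds (against 1.43%). Among them Oas2, at 0.106 to 0.217 FPKM in CTR, passed the filter only through dKO, so its call largely follows from the filter. The largest change was that of Ifit3, an antiviral protein, from 4.77 ± 1.25 to 58.5 ± 38.2 FPKM (log2 difference 3.16), followed by the ubiquitin-like Isg15, from 10.1 ± 1.61 to 80.6 ± 49.5 FPKM (2.65). The smallest was that of the RNA sensor Ifih1, from 4.03 ± 0.642 to 7.20 ± 1.79 FPKM (0.69). The summed level of the list was 87.0 to 112 FPKM in CTR and 287 to 845 FPKM in dKO. In its log2 difference Ifi202b thus lay above every tested gene of this list, and the other tested members lay below its median.

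Upstream of these genes, the 8 receptor and signalling genes of the interferon list were all tested and 5 were higher, with a median log2 difference of 0.41. They were the interferon-gamma receptor chains Ifngr1 (0.53) and Ifngr2 (0.67), the interferon regulatory factors Irf9 (0.71) and Irf1 (0.56), and the type I receptor chain Ifnar1 (0.29). The gene of interferon beta itself, Ifnb1, was listed between 0 and 0.152 FPKM in every library. Of the DNA sensing genes, 7 of 8 were found and 6 tested, 3 higher and 2 lower (median 0.09). Beside both lists, 20.4% of all genes tested were higher and 32.6% lower. Zbp1, a nucleic acid sensor that is itself induced by interferon, rose from 2.15 ± 0.267 to 17.0 ± 8.28 FPKM, Sting1 from 22.7 ± 2.65 to 26.4 ± 2.07 FPKM and the kinase Tbk1 from 13.4 ± 0.958 to 15.8 ± 1.57 FPKM. Irf3 fell from 9.77 ± 0.321 to 7.74 ± 0.246 FPKM and the DNA-binding protein Hmgb1 from 38.3 ± 3.69 to 22.2 ± 1.86 FPKM. The sensor Cgas was at 1.41 ± 0.392 and 1.39 ± 0.570 FPKM.

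Of the inflammasome genes that act with Aim2, 5 of 7 were tested and 2 were higher (median 0.20), where 20.4% of all genes tested were higher. Casp1, the protease, rose from 2.40 ± 0.584 to 7.30 ± 1.83 FPKM and Pycard, the adaptor ASC, from 1.36 ± 0.375 to 2.88 ± 1.01 FPKM. Casp4, Gsdmd and the cytokine Il18 did not pass the test, with log2 differences of 0.12, 0.20 and -0.26. The sensor Nlrp3 and the cytokine Il1b were too low to be tested. Nlrp3 did not overlap, at 0.190 to 0.562 FPKM in CTR and 0.651 to 2.45 FPKM in dKO. Il1b had 1 fragment in CTR and 109 in dKO, of which 94 were in dKO replicate 5.

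**Figure D4:**
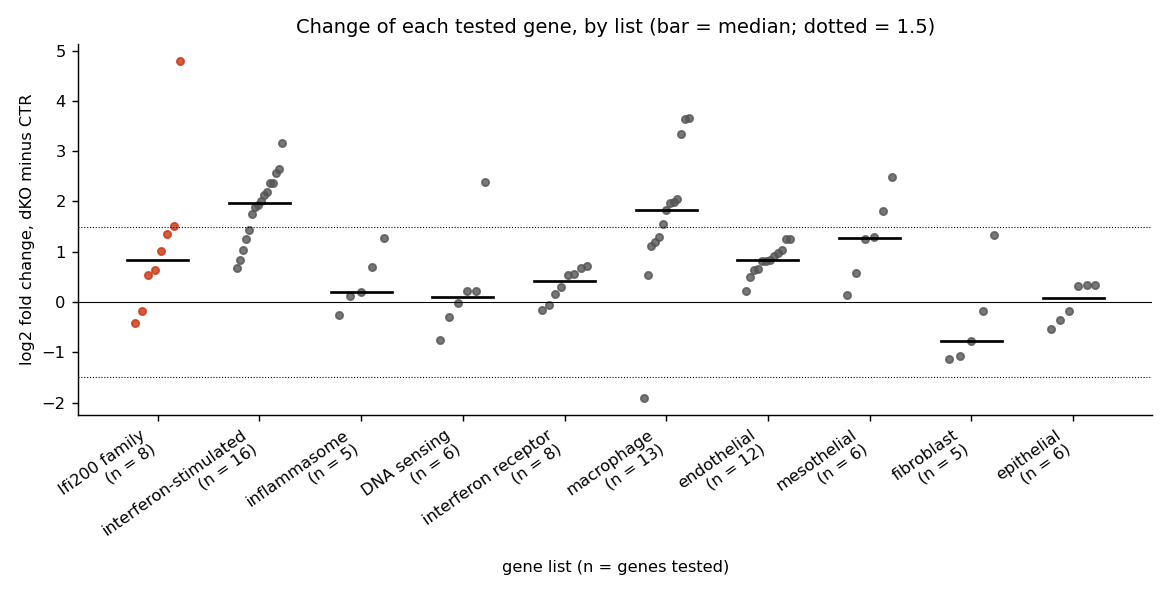
Log2 fold change (dKO minus CTR) of every tested gene of each list; bars are medians and dotted lines the fold threshold of 1.5. The family spreads from -0.41 to 4.80 around a median of 0.83, between the interferon-stimulated genes (median 1.97) and the interferon receptor genes (0.41). The medians of the cell-type lists are 1.84 (macrophage), 1.28 (mesothelial), 0.83 (endothelial), 0.08 (epithelial) and -0.77 (fibroblast).

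Variation within a group was not used to choose the genes. Each member was therefore correlated with the mean log2(FPKM + 1) of the 18 interferon genes and, apart from that, of the 14 macrophage genes, over the 6 libraries of each group, which makes 40 relations. None passed an adjusted p of 0.05 (0 of 40, and the smallest adjusted p was 0.0556 by the exact permutation test). With 6 libraries the permutation p has a floor, and adjusted over 40 relations that floor lies above 0.05. No relation could therefore pass alone, and nothing is concluded from the count of 0. At an unadjusted p under 0.05 there were 5 with the interferon genes and 1 with the macrophage genes in CTR, and 4 and 3 in dKO. In dKO Ifi204 followed the interferon genes most closely (r = 0.95, exact two-sided permutation p = 0.00278, adjusted 0.0556; Spearman's rho = 0.94, p = 0.0167), and r was 0.91 without replicates 1 and 3, which lay farthest from the median. For Ifi202b r was 0.90 (exact permutation p = 0.0167, adjusted 0.0778; rho = 0.83, p = 0.0583) and 0.62 without these libraries. Ifi203 had an r of 0.84 and Ifi207 of 0.82, but for Ifi207 r was 0.27 without the same 2 libraries, so that relation rested on them. Ifi211 (r = 0.30) and Ifi205 (r = 0.09) had the lowest positive values.

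The macrophage genes varied with the interferon genes across the same dKO libraries (r = 0.85) and CTR libraries (r = 0.68), so the lists are not independent of each other. In dKO r with the macrophage list was 0.97 for Ifi207 (exact permutation p = 0.0125, adjusted 0.0778) and 0.94 for Ifi204 (exact permutation p = 0.0236, adjusted 0.0859), but 0.35 and 0.14 without replicates 1 and 3. For Ifi202b it was 0.74 (exact permutation p = 0.0528, adjusted 0.151) and -0.43 without them. The part of macrophage RNA in the rise of the family was not tested.

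In CTR the interferon genes went with Ifi207 (r = 0.99, exact permutation p = 0.00417, adjusted 0.0556), Aim2 (0.98), Ifi205 (0.93) and Ifi203 (0.89), and against Ifi202b (r = -0.93, exact permutation p = 0.00417, adjusted 0.0556; rho = -0.94), whose CTR values rest on 2 to 8 fragments a library. Ifi205 thus had a high r with the interferon genes in CTR and one near 0 in dKO; the difference itself was not tested.

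**Figure D5:**
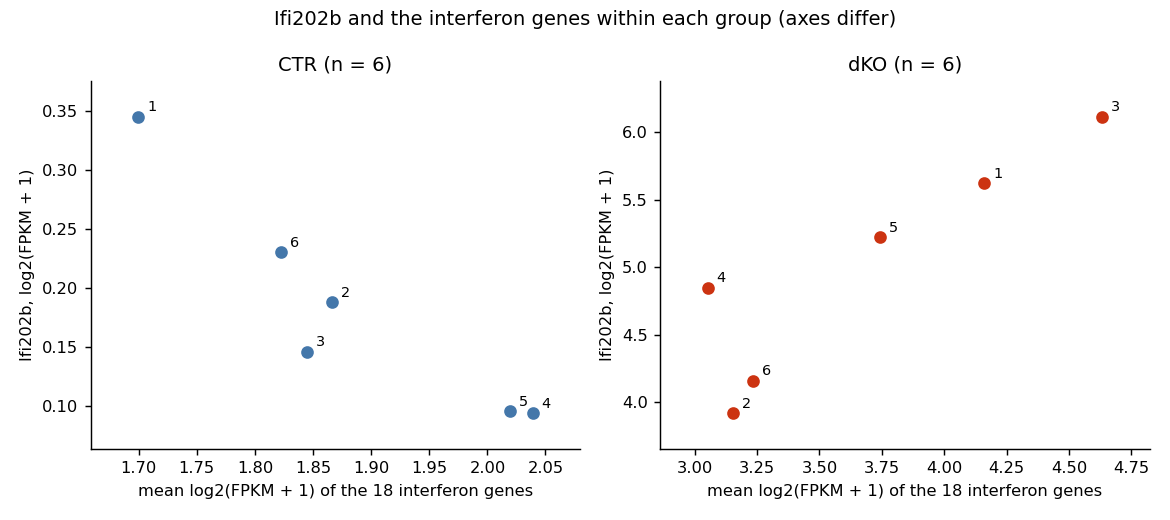
Ifi202b against the mean level of the 18 interferon genes, both as log2(FPKM + 1), for the 6 CTR libraries (left) and the 6 dKO libraries (right); numbers are replicate numbers and the axes differ. In dKO replicates 1 and 3 are at the upper right (r = 0.90 over 6 libraries), and in CTR the points fall from left to right within a range under 0.35 on the vertical axis.

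Over all 12 libraries the genes whose log2 levels were most like that of Ifi202b were the ectoenzyme Cd38 (r = 0.99), the cytokine Tgfb1 (0.98), the macrophage elastase Mmp12 (0.98), the interferon-induced tether Bst2 (0.98) and B2m, the light chain of MHC class I (0.98). Such values mainly follow the difference between the groups. Once the mean of each group was removed, the closest were Rsad2 (0.94), Cmpk2 (0.91), Ifit2 (0.90), Ifit3b (0.87) and Ifi44 (0.86), all of them known interferon-stimulated genes. On this scale Ifi202b ran from 0.0942 to 0.345 in CTR and from 3.92 to 6.12 in dKO. The r values after removal of the group means therefore mainly follow the dKO libraries. The points share libraries and scaling, and genes were ranked over all those tested, so these are descriptions.

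Because Ifi202b levels differ among strains, 2 genes with known lesions in C57BL/6 substrains were set beside it. Mmrn1 is deleted in the C57BL/6JOlaHsd substrain, and Nnt carries a deletion in C57BL/6J. Mmrn1 ran from 8.46 to 19.3 FPKM in CTR whereas each of the 6 dKO libraries listed it at 0, with 8783 fragments against 0. Nnt was at 3.58 ± 0.333 and 4.03 ± 0.560 FPKM, with overlapping ranges. As for Sp3, a total over the whole gene does not show whether a part of it is deleted. Mmrn1 and Ifi202b separated the groups in opposite directions in all 12 libraries. A difference in strain between the groups, the deletion of Sp1 and Sp3, and the Cre transgene cannot be told apart in this design, and the part of each in the Ifi202b rise was not tested.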

How the data were processed

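RNA of mouse lung endothelial cells (6 CTR and 6 dKO libraries) was sequenced as paired reads. The authors trimmed the reads with Trimmomatic, aligned them in successive rounds with STAR to mm39 (GRCm39), kept uniquely aligned reads and deposited FPKM values per gene; the submitters' processing notes also name Bowtie2 2.2.3, HISAT2 2.1.0, TopHat2 and DESeq2. The counting program, annotation and strand setting are not given in the sources used here. Unique alignment can lower the values of near-identical members.

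The deposited FPKM columns named for tamoxifen were taken as dKO, since the other 6 are named as controls and both groups received tamoxifen. Gene symbols and positions came from GENCODE on GRCm39, which 27706 of 28689 identifiers matched; promoters came from RefSeq (GRCm38.p6), and no coordinates were carried between builds. Whole fragments were recovered from the FPKM values for 100% of genes (tolerance 0.05 fragments), with totals of 15523054 to 17938286. The GENCODE exon length was kept where it gave whole fragments in all libraries (9694 genes). Elsewhere lengths from 20 to 150000 bases were searched, and the first that gave whole fragments was taken. Such a length is easily found for genes with few fragments, so the 100% is no check of their counts. On a 2 kb gene 1 fragment was worth 0.0279 to 0.0322 FPKM.

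Groups were compared with limma 3.58.1 (R 4.3.3; eBayes with a trend) on log2(FPKM + 1) for the 12467 genes that reached 1 FPKM in 6 or more libraries, with Benjamini-Hochberg adjustment and the study's thresholds (an adjusted p below 0.05 and a log2 fold change beyond 1.5 either way). The fit was also run on simulated data, with the same spread setting for all genes and changes planted only in genes with many fragments. That run was no check of genes as low in CTR or as variable in dKO as Ifi202b. Relations within groups used exact two-sided permutation of the pairings. Transcripts were aligned with BLAST 2.17.0 and promoters with Biopython 1.88; other steps used Python 3.11.15, NumPy 2.4.6 and pandas 2.3.3. No 2 libraries agreed within sampling noise (chi-square per degree of freedom of at least 11.3 over 30 pairs within groups). Proteins were not analysed here. The members, lists, tests and alternatives were chosen with earlier results of these data known. Genes were named by rule: all members, other cluster genes, Sp1 and Sp3, list genes by size and role, the 3 most changed neighbours within 1 Mb, the 5 most correlated genes by each measure, and the strain genes Mmrn1 and Nnt; 1 further gene of that rule is not reported here. Ptprc, S100a8, Cd3e, Cd4, Cd8a, Ms4a1 and Gm18445 were named after their values were seen. Alternatives were smaller pseudocounts, other filters, TPM, median-of-ratios and quantile scaling, robust eBayes, a replicate block, limma-voom on fragments and leaving out each library.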

Additional observations from a re-analysis of the deposited data

Results flagged for a closer look

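In dKO replicate 3, 4 members stood far from the other 5 dKO libraries, with a gap to the nearest library that took up most of the range of the group. Ifi203 was at 15.1 FPKM, where the others ran from 4.87 to 6.33 FPKM. Ifi204 was at 31.4 FPKM, where the others ran from 12 to 18.1 FPKM. Ifi207 was at 42.5 FPKM, where the others ran from 21.5 to 25.6 FPKM, and Mndal was at 7.04 FPKM, where the others ran from 1.88 to 3.65 FPKM. Of 25 groups of 6 values examined 4 were marked in this way, against 1.25 that chance would give at 1 in 20; the 4 share a library and are not independent. Ifi202b was also highest in this library, at 68.4 FPKM, where the others ran from 14.1 to 48.2 FPKM, but its gap was a smaller part of the range and it was not marked. Without it the ratio of group means was 2.83 for Ifi204, 2.72 for Ifi203, 1.84 for Ifi207 and 1.40 for Mndal, each still above 1.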

How the results depend on the processing

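The Ifi202b log2 difference of 4.80 kept its direction under all 19 alternatives and became larger where low values weigh more: 7.06 with a pseudocount of 0.1, 7.84 with 0.01, 6.13 in TPM and 7.75 with limma-voom on fragments; leaving out 1 library gave 4.57 (without dKO replicate 3) to 5.01. Under the same 4 settings the genes past both thresholds numbered 486, 525, 387 and 516 in place of 247 (231 to 265 when 1 library was left out), and Ifi203 joined Ifi202b and Ifi204 past both thresholds. The members past both numbered 1 to 2 when 1 library was left out, since Ifi204 fell short without CTR replicate 1, CTR replicate 6, dKO replicate 1 or dKO replicate 3; the log2 differences of Aim2 were 0.98, 1.03 and 1.03 under the pseudocounts of 0.1 and 0.01 and limma-voom. Ifi205 and Ifi211 stayed below 0 under all 19 alternatives (-0.67 to -0.29 and -0.25 to -0.07). The interferon genes higher in dKO numbered 16 when any library was left out. The count of members correlated with the interferon genes in dKO after adjustment was 0, and 1 without the list gene Ifit1 and 1 without Rsad2. The floor of the permutation p keeps such counts low. With the replicate block the genes past both numbered 247, the members past both 2 and the Ifi202b value was 4.80. Same-numbered libraries correlated at -0.11 to 0.57. Libraries with different numbers were not compared, so this range cannot decide whether the numbers mark pairs. The main fit did not take the numbers as pairs. Depth limits Ifi202b in CTR and Ifi206, at a few fragments a library.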
